A study of Mus musculus with 22 samples.

Results

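The oxygen dependence of the ABT-263 effect was measured over 22 of the 22 lung libraries of the series, chosen by the oxygen condition and treatment that each sample title names. For every gene it is a difference of differences, the ABT-263 minus vehicle difference in hypoxia minus the same difference in normoxia, on the log2 scale. This interaction is positive where ABT-263 minus vehicle was higher in hypoxia than in normoxia, and negative where it was lower. The groups were hypoxia with ABT-263 (5 libraries), hypoxia with vehicle (6), normoxia with ABT-263 (6) and normoxia with vehicle (5). All came from whole lungs of young male mice labelled C57BL6/j, kept for 8 days in their oxygen condition. ABT-263 was given at 50 mg/kg per day over the same 8 days, and the oxygen level of the hypoxia groups is not given in the sources used here. Titles and treatment tags named different treatments in 3 libraries, which were replicate 1 of hypoxia ABT-263, of hypoxia vehicle and of normoxia ABT-263. For most named genes called within an oxygen condition, the effect is given with and without these 3 libraries.

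ABT-263 (navitoclax) occupies the groove of the survival proteins BCL-XL, BCL-2 and BCL-W, and this frees the killer proteins they hold so that mitochondria become leaky. It is used as a senolytic, a drug meant to remove senescent cells, and it is also known to lower blood platelets, which depend on BCL-XL, and B lymphocytes, which depend on BCL-2. Hypoxia stabilises the hypoxia-inducible factors (HIF), which switch on glucose uptake, glycolysis and vascular growth factors, and in the lung it drives remodelling of the vessel wall. An effect of the drug that depended on oxygen would appear as a gene whose response to ABT-263 differed between the oxygen conditions.

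Library totals ran from 11509016 to 15744202 rounded expected counts. The lung markers were high in every library, with 22554 to 32951 CPM (read counts put on one common scale of sequencing depth) for the surfactant gene Sftpc and 35190 to 92221 CPM for the club cell secretoglobin Scgb1a1. Replicate 1 of hypoxia ABT-263, one of the libraries with conflicting labels, stood within the hypoxia vehicle range for some transcripts that differed between the hypoxia groups, as given below for Hspa1b, Tmem252 and Amd1, and not for others such as Ighd. Normoxia ABT-263 replicates 2 and 6 stood apart in cell cycle transcripts, and results are given without them where they differ. Levels are CPM scaled with TMM factors, and each mouse lung is taken as 1 replicate, so that p values measure the spread between these samples. Whole-lung RNA cannot tell fewer cells of a type from less RNA per cell.

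With edgeR's quasi-likelihood test, 0 of 16638 genes (0%) had an interaction that passed a Benjamini-Hochberg adjusted p of 0.05. The smallest adjusted p was 0.286. At an unadjusted p under 0.05 there were 1546 genes (9.29%), of which 595 had a positive interaction (3.58% of genes tested) and 951 a negative one (5.72%). Limma-voom called 0 genes, and DESeq2 called 17, 13 positive and 4 negative. The data set a loose bound on most genes. For 13654 genes (82.1%) the 95% interval of the interaction lay wholly within 1 log2 unit of 0, and the median half-width of that interval was 0.33. The bound of 1 is larger than the median size of the called ABT-263 effects, 0.62 in normoxia and 0.76 in hypoxia. An interval inside it can therefore still hold an effect of that size in 1 oxygen condition only. The median standard error was 0.16 for the interaction, 0.11 for ABT-263 in hypoxia and 0.11 for ABT-263 in normoxia. On simulated counts the same test recovered 34.3% of 1.5-fold, 77.6% of 2-fold and 93.9% of 4-fold interactions, so that differences near 1.5-fold would mostly have been missed. The simulation changed 200 genes and drew each gene independently. It holds no libraries that shift together and no conflicting labels, so these rates may not carry over to the real libraries.

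Taken one oxygen condition at a time, ABT-263 changed 50 genes in hypoxia (0.301% of genes tested, 19 higher and 31 lower) and 89 genes in normoxia (0.535%, 18 higher and 71 lower). By direction these were 0.114% higher and 0.186% lower in hypoxia, and 0.108% higher and 0.427% lower in normoxia. At an unadjusted p under 0.05, 7.1% of genes were higher and 7.24% lower in hypoxia, and 7.45% higher and 5.57% lower in normoxia. The 15 genes called in both were 30% of the hypoxia list and 16.9% of the normoxia list, and all 15 fell. They included the B cell receptor components Cd79a, Cd79b, Igkc and Ighd, the B cell co-receptor Cd22, the B cell survival receptor Tnfrsf13c and the chemokine receptor Cxcr5. Of the 89 genes called in normoxia, 77 had the same sign in hypoxia, 53 of them with an unadjusted p under 0.05, and 29 had an interaction at that level. Their median size was 0.62 in normoxia, and 0.36 in hypoxia when measured in the same direction. Of the 50 genes called in hypoxia, 41 had the same sign in normoxia, 25 of them with an unadjusted p under 0.05, and 23 had an interaction at that level. Their median size was 0.76 in hypoxia and 0.39 in normoxia. The genes of each list were selected on the first of its values, so the fall to the second is partly set by that selection. Across all 16638 genes the effects in hypoxia and in normoxia, which share no library, had Pearson's r of 0.28 and Spearman's rho of 0.21, and 7094 genes (42.6%) had opposite signs. Genes are not independent replicates, and these values are a description.

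Calls within an oxygen condition rested on few libraries. Without the 3 conflictingly labelled libraries, 31 of the 50 genes called in hypoxia still passed (15 higher and 16 lower), and 16 of the 89 called in normoxia (1 higher and 15 lower). All 50 kept their sign in that fit, as did 88 of the 89, and the remaining gene, Fbxo43, had no value there. When each of the 22 libraries was left out in turn, the called genes kept their sign in every fit, but only Ighd and Cd79a in hypoxia and Ighd in normoxia passed in all 22. Of the genes named above, Tnfrsf13c passed in 3 of the 22 fits in hypoxia and in 17 in normoxia. Igkc passed in 16 and 18, Cd79b in 19 and 18, Cxcr5 in 19 and 19, and Cd79a in 18 in normoxia. Without the 3 conflicting libraries Igkc passed in neither condition (edgeR adjusted p = 0.0698 in hypoxia and 0.0696 in normoxia). Cd79a, Cxcr5 and Tnfrsf13c passed there in hypoxia only, and Cd79b, Ighd and Cd22 in both. No gene was called higher in hypoxia without hypoxia ABT-263 replicate 4 or 5, or without hypoxia vehicle replicate 1 or 2. No gene was called higher in normoxia without normoxia ABT-263 replicate 1 or 4, or without normoxia vehicle replicate 3 or 4. Each rise given below was therefore lost when any 1 of the 4 libraries of its condition was left out. The number of the 22 fits passed is given for most named genes.

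**Figure D1:**
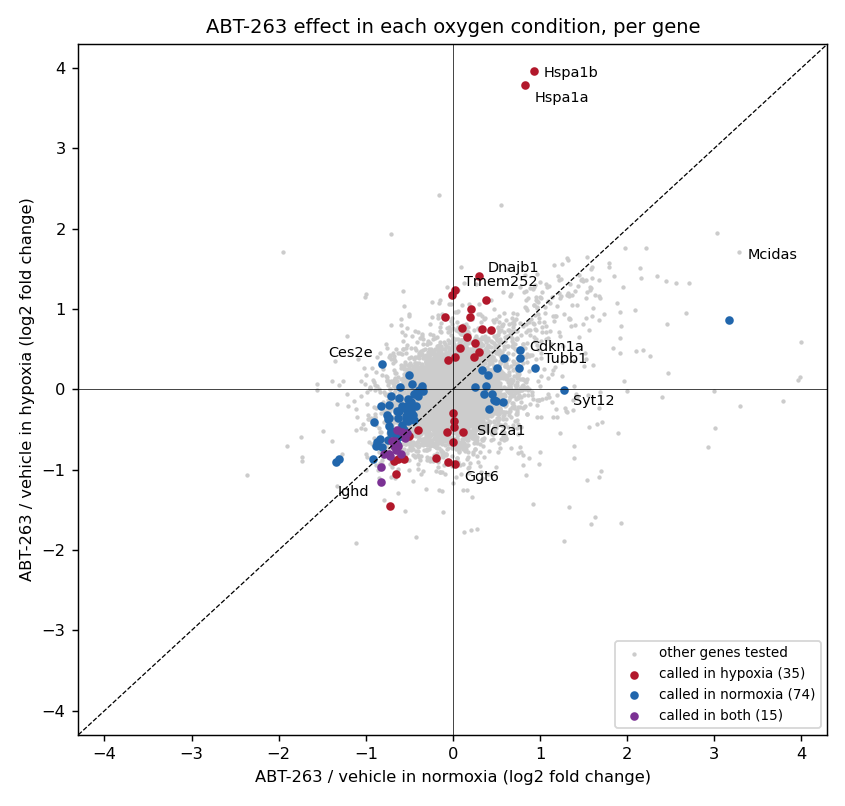
Log2 fold change of ABT-263 over vehicle in hypoxia (vertical axis) against that in normoxia (horizontal axis) for each gene tested, with the dashed line marking equal effects; the 35 genes called in hypoxia only are red, the 74 called in normoxia only blue and the 15 called in both purple. The 15 purple points lie at lower left near the dashed line, Hspa1b and Hspa1a lie far above it, and 6 genes fall outside the range shown.

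None of the genes named next passed for the interaction, and each of the 30 had an adjusted p of 0.286. They are the 15 with the smallest interaction p on each side, gene models without an established name left out. All 15 on the negative side were lower with ABT-263 in hypoxia and higher with ABT-263 in normoxia, and all 15 on the positive side showed the opposite. None of the 30 changed sign in any of the other settings or with any library left out. The 30 were picked on the interaction in these same libraries, so the opposite signs and the kept signs are partly set by that selection. DESeq2 called 13 of the 30, with a lowest adjusted p of 0.0296.

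On the negative side the leading gene was Kcnj13, an inward-rectifier potassium channel (ENSMUSG00000079436, GRCm38 chr1:87386363-87394729, minus strand), whose exons overlap those of Gigyf2 on the opposite strand. Kcnj13 had 12.3, 17.0, 14.2, 16.6 and 14.3 CPM in hypoxia ABT-263 libraries, against 15.4 to 20.7 CPM (median 17.6) in hypoxia vehicle libraries. It had 19.5 to 22.9 CPM (median 21.5) in normoxia ABT-263 libraries, against 16.8, 15.3, 15.4, 13.7 and 19.4 CPM in normoxia vehicle libraries. The hypoxia groups overlapped, whereas every normoxia ABT-263 library was above every normoxia vehicle library. The log2 difference was −0.25 ± 0.10 (SE) in hypoxia (edgeR adjusted p = 0.259) and 0.41 ± 0.10 in normoxia (edgeR adjusted p = 0.0492), an interaction of −0.66 ± 0.14 with a 95% interval from −0.94 to −0.37. The normoxia difference passed in 4 of the 22 fits and was 0.40 without the 3 conflictingly labelled libraries (edgeR adjusted p = 0.0981).

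Pcx, the pyruvate carboxylase that feeds gluconeogenesis and lipid synthesis (chr19:4510472-4621752, plus strand), followed the same pattern. It had 66.4, 68.4, 70.3, 81.3 and 53.7 CPM in hypoxia ABT-263 libraries, against 63.6 to 80.1 CPM (median 76.6) in hypoxia vehicle libraries. In normoxia it had 102 to 124 CPM (median 112) with ABT-263, against 95.9, 85.6, 74.1, 69.1 and 80.7 CPM with vehicle. Only the normoxia groups were separated. Its log2 difference was −0.14 ± 0.09 in hypoxia and 0.47 ± 0.09 in normoxia, where it rose (edgeR adjusted p = 0.0224). The interaction was −0.61 ± 0.13. Pcx passed in normoxia in 18 of the 22 fits, and without the 3 conflictingly labelled libraries it was 0.49 (edgeR adjusted p = 0.0382), the one rise of that condition that still passed. Usp43, a ubiquitin-specific protease, also rose in normoxia (0.49 ± 0.11, edgeR adjusted p = 0.0391) with −0.14 ± 0.11 in hypoxia. It passed in 10 of the 22 fits, and was 0.43 when those 3 libraries were left out (edgeR adjusted p = 0.137).

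Slc2a1, the glucose transporter GLUT1 and a HIF target (chr4:119108711-119137983, plus strand), differed on the hypoxia side. It had 31.6, 25.2, 28.3, 27.3 and 24.9 CPM in hypoxia ABT-263 libraries, against 31.6 to 48.1 CPM (median 40.1) in hypoxia vehicle libraries. Normoxia ABT-263 libraries had 30.9 to 52.2 CPM (median 43.2), against 39.5, 39.9, 35.2, 38.9 and 40.9 CPM in normoxia vehicle libraries. The hypoxia groups met at a single value, that of replicate 1 in each, and the normoxia groups overlapped. It fell with ABT-263 in hypoxia (−0.53 ± 0.11, edgeR adjusted p = 0.0358), against 0.12 ± 0.10 in normoxia, and the interaction was −0.64 ± 0.15. The fall in hypoxia passed in 15 of the 22 fits, and was −0.64 with the 3 conflicting libraries left out (edgeR adjusted p = 0.00919). Without normoxia ABT-263 replicates 2 and 6, Slc2a1 passed for the interaction (−0.77 ± 0.13, edgeR adjusted p = 0.028). This was the only setting in which its interaction passed, and DESeq2 did not call it. Those 2 libraries were left out because of their cell cycle levels in earlier results. Ggt6, a gamma-glutamyltransferase family gene, had 2.16, 2.52, 2.46, 2.83 and 1.90 CPM in hypoxia ABT-263 libraries, below the 3.24 to 5.70 CPM of every hypoxia vehicle library. It fell in hypoxia (−0.93 ± 0.16, edgeR adjusted p = 0.0178), against 0.03 ± 0.16 in normoxia. Ggt6 passed there in 20 of the 22 fits, and at −0.98 without the 3 libraries (edgeR adjusted p = 0.00651).

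The negative side also held cilium genes. Ccdc151, an assembly factor of outer dynein arms, had an interaction of −0.88 ± 0.20, Dnaaf3, which preassembles dynein in the cytoplasm, −0.61 ± 0.14, and Tubb4b, a beta tubulin of axonemes, −0.65 ± 0.16. Exons of Dnaaf3 overlap Tnni3 and those of Tubb4b overlap Fam166a. The other names on this side were Armc9 (a ciliary base protein), Ccdc189, Rnf186, Atp2c2, Mblac1, Bdh1 (a ketone body enzyme) and Bspry, between −0.90 and −0.48.

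On the positive side, Ces2e, a carboxylesterase of lipid and drug metabolism (ENSMUSG00000031886, chr8:104926260-104934672, plus strand), had 7, 4.35, 5.65, 6.29 and 7.68 CPM in hypoxia ABT-263 libraries, against 3.95 to 6.01 CPM (median 5.09) in hypoxia vehicle libraries. In normoxia it had 1.68 to 2.76 CPM (median 2.31) with ABT-263, against 4.25, 3.97, 3.64, 3.34 and 4.77 CPM with vehicle. Every normoxia ABT-263 library was below every other library of the series. Ces2e fell in normoxia (−0.81 ± 0.17, edgeR adjusted p = 0.030), against 0.31 ± 0.16 in hypoxia, and the interaction was 1.12 ± 0.24. Its fall passed in 17 of the 22 fits, and was −0.89 without the 3 conflicting libraries (edgeR adjusted p = 0.0647). It belongs to a cluster of related esterase genes, between which reads may be divided.

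Abcg3, a transporter of the ABC family (chr5:104935057-104982718, minus strand), had 11.1, 11.2, 10.6, 8.70 and 10.9 CPM in hypoxia ABT-263 libraries, against 7.68 to 10.5 CPM (median 9.42) in hypoxia vehicle libraries. It had 8.22 to 10.5 CPM (median 9.83) in normoxia ABT-263 libraries, against 11.1, 12.9, 14.5, 15.1 and 14.2 CPM in normoxia vehicle libraries. The normoxia groups were separated and the hypoxia groups were not. Abcg3 fell in normoxia (−0.50 ± 0.10, edgeR adjusted p = 0.0254), against 0.17 ± 0.10 in hypoxia. Leaving out the 3 libraries gave −0.47 for Abcg3 (edgeR adjusted p = 0.0795), and 18 of the 22 fits passed. Klhl6, a B cell ubiquitin ligase adaptor, fell in normoxia too (−0.47 ± 0.10, edgeR adjusted p = 0.0262), against 0.07 ± 0.10 in hypoxia. Klhl6 passed in 18 of the 22 fits, and was −0.49 without the 3 libraries (edgeR adjusted p = 0.0664).

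Cd34, a sialomucin of endothelial and progenitor cells, was higher in the hypoxia groups whatever the treatment. Its levels were 431, 419, 441, 441 and 455 CPM in hypoxia ABT-263 libraries, against 332 to 421 CPM (median 355) in hypoxia vehicle libraries, with 179 to 229 CPM in normoxia ABT-263 and 187 to 256 CPM in normoxia vehicle libraries. The log2 difference was 0.27 ± 0.08 in hypoxia (edgeR adjusted p = 0.134) and −0.18 ± 0.08 in normoxia, neither of which passed. The transcription factor Irf1 (0.36 ± 0.09) and the immunoproteasome subunit Psmb8 (0.45 ± 0.11) had smaller interactions with small errors. The remainder on the positive side were Zfp81, Zfp963, Car2 (carbonic anhydrase), Ugcg (glucosylceramide synthase), Ldb2, Csrnp2, Otulinl, Stk17b and Cmtm3, from 0.36 to 0.71.

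**Figure D2:**
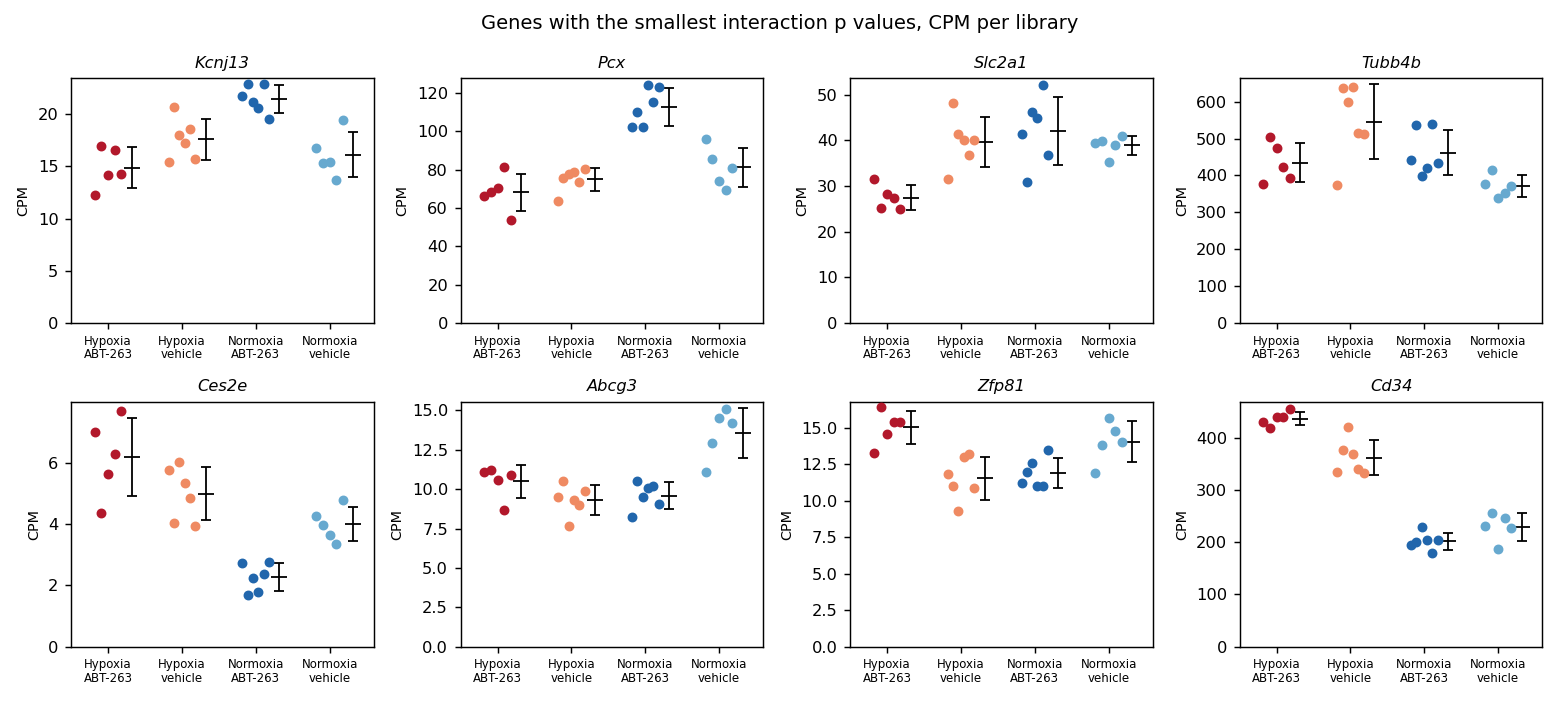
CPM per library of 8 genes among the 30 with the smallest interaction p, 4 negative (top row) and 4 positive (bottom row), with 1 point per library and bars for mean ± SD. Kcnj13, Pcx, Ces2e and Abcg3 separate normoxia ABT-263 from normoxia vehicle, whereas for Slc2a1 the hypoxia groups meet at 1 value and the normoxia groups overlap.

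Gene lists gave the broader picture. Over all genes tested the median interaction was −0.02, with a median of −0.01 in hypoxia and 0.01 in normoxia. No list had a member that passed for the interaction, so each is described by its median and by its members at an unadjusted p under 0.05, to be read against 3.58% positive and 5.72% negative over all genes. Members of a list vary together across libraries and are not independent.

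The multiciliated cell list had the most negative median, followed by the platelet, club cell and mesothelial lists. Of 25 multiciliated cell genes tested, 25 had a negative interaction, 8 (32%) at an unadjusted p under 0.05, and the list median was −0.52, from −0.24 in hypoxia and 0.25 in normoxia. Tekt1, a tektin of ciliary microtubules, had −0.62 ± 0.16, the transcription factor Rfx2 −0.52 ± 0.15, the progenitor factor Myb −0.94 ± 0.29 and Cfap126, needed for motile cilia, −0.61 ± 0.20. Tekt1 averaged 34.4 ± 3.93 CPM in hypoxia ABT-263 libraries and 43.1 ± 6.04 CPM in hypoxia vehicle libraries (SD, n = 5 and 6). It averaged 46.4 ± 7.68 CPM in normoxia ABT-263 libraries and 37.8 ± 4.42 CPM in normoxia vehicle libraries (SD, n = 6 and 5), and the groups overlapped in both oxygen conditions. The master regulator Foxj1, another of the 8 and picked out after its values were seen, had 134, 162, 175, 221 and 191 CPM in hypoxia ABT-263 libraries, against 100 to 221 CPM (median 166) in hypoxia vehicle libraries. It had 229 to 351 CPM (median 242) in normoxia ABT-263 libraries, against 175, 220, 148, 140 and 159 CPM in normoxia vehicle libraries, with no overlap in normoxia. The log2 difference of Foxj1 was 0.09 in hypoxia and 0.64 in normoxia (edgeR adjusted p = 0.0867). The median of the multiciliated list stayed between −0.60 and −0.40 in every alternative.

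Club and secretory airway genes gave a median of −0.40 over 16 genes, from −0.20 in hypoxia and 0.20 in normoxia, with 15 negative and 4 of these at an unadjusted p under 0.05. These 4 were the cholecystokinin receptor Cckar (−0.49 ± 0.16), haptoglobin Hp (−0.42 ± 0.18), the cytochrome P450 Cyp4b1 (−0.37 ± 0.16) and the aldehyde dehydrogenase Aldh1a7 (−0.38 ± 0.17). Scgb1a1 itself had −0.30 ± 0.23. Per-library scores, the mean log2 CPM of a list's members, ran from 8.03 to 9.45 for this list in normoxia ABT-263, against 8.29 to 9.20 in normoxia vehicle, so single libraries varied as widely as the groups differed. The part of airway content in these values was not tested. Alveolar epithelial lists stayed near 0, with a median of −0.06 for 18 type 2 genes and 0.03 for 16 type 1 genes.

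**Figure D3:**
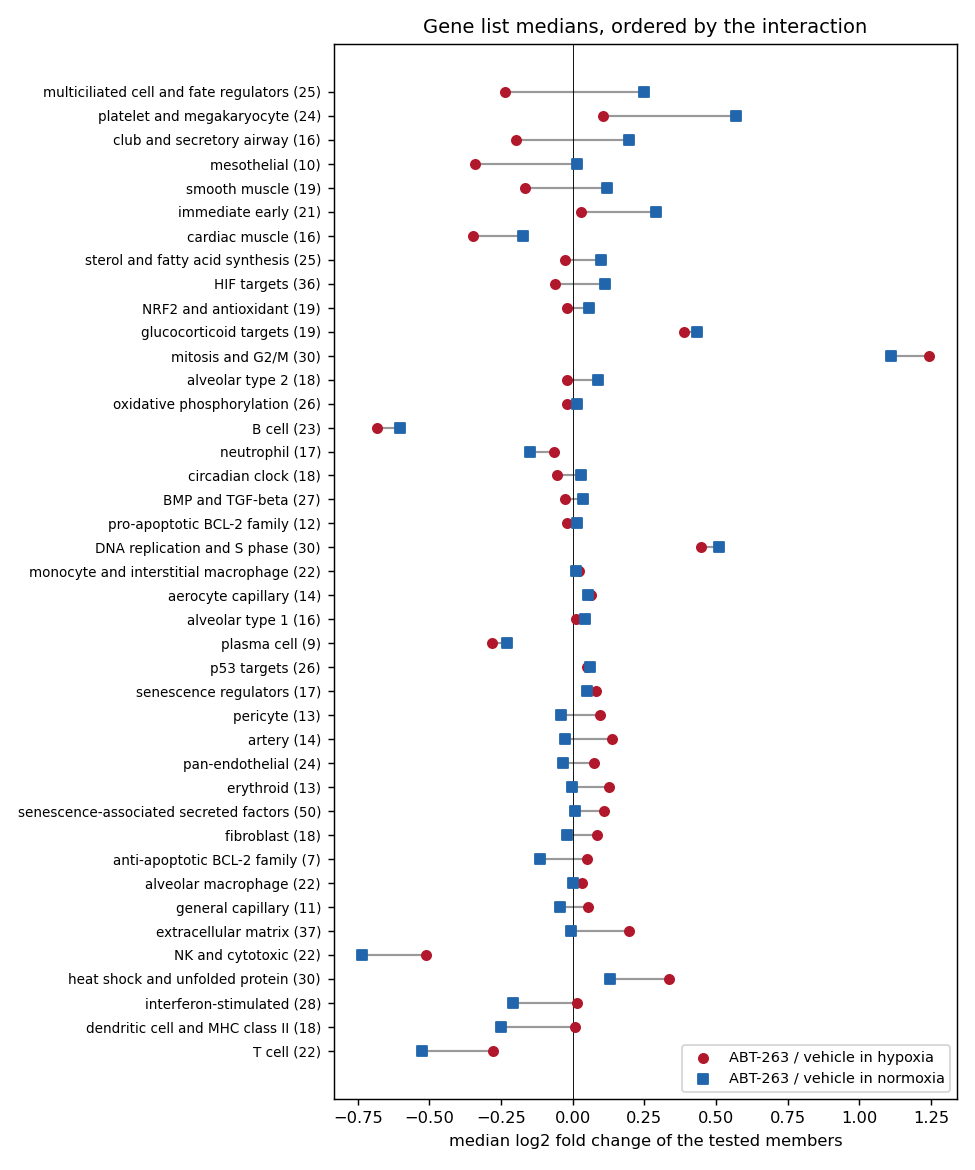
Median log2 fold change of ABT-263 over vehicle of the tested members of each gene list (number in brackets), with red circles for hypoxia and blue squares for normoxia; lists run from the most negative interaction at the top to the most positive at the bottom. Multiciliated and club cell lists have opposite signs in hypoxia and normoxia, the platelet list is higher in normoxia, and the B cell markers nearly coincide.

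Platelet and megakaryocyte transcripts had the next most negative median after the multiciliated list. Over 24 genes the median interaction was −0.43, from 0.10 in hypoxia and 0.57 in normoxia, with 9 members (37.5%) negative and 1 positive at an unadjusted p under 0.05. Tubb1, the tubulin of platelets (chr2:174450695-174457882, plus strand), had 9.16, 7.56, 8.27, 6.44 and 9.58 CPM in hypoxia ABT-263 libraries, against 5.18 to 10.7 CPM (median 6.21) in hypoxia vehicle libraries. It had 17.0 to 35.1 CPM (median 25.0) in normoxia ABT-263 libraries, against 8.63, 19.7, 10.9, 10.7 and 15.8 CPM in normoxia vehicle libraries. In normoxia the groups overlapped through 1 library of each. Tubb1 rose in normoxia (0.94 ± 0.20, edgeR adjusted p = 0.0311) and had 0.27 ± 0.22 in hypoxia, an interaction of −0.68 ± 0.30. The rise of Tubb1 passed in 15 of the 22 fits, and was 0.93 without the 3 conflicting libraries (edgeR adjusted p = 0.0991). The integrin Itga2b had −0.75 ± 0.28 and the chemokine Ppbp, stored in platelet granules, −0.86 ± 0.34. Gng11, a G protein subunit that other cells also express, was the positive member (0.33 ± 0.13). Both hypoxia groups had low levels of these transcripts, with scores of 3.03 to 3.50 with ABT-263 and 2.89 to 3.40 with vehicle, against 3.74 to 4.33 with ABT-263 and 3.24 to 4.02 with vehicle in normoxia. The list median stayed between −0.56 and −0.32 in every alternative.

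HIF targets had a median interaction of −0.14 over 36 genes, from −0.06 in hypoxia and 0.11 in normoxia. Of these, 8 were negative at an unadjusted p under 0.05 (22.2%) and 1 was positive, the collagen lysyl hydroxylase Plod2 (0.32 ± 0.14). The negative ones handle glucose for the most part. Beside Slc2a1 they included the neuronal-type glucose transporter Slc2a3 (−0.62 ± 0.18), aldolase Aldoa (−0.41 ± 0.15), lactate dehydrogenase Ldha (−0.36 ± 0.13), hexokinase Hk2 (−0.35 ± 0.15) and triosephosphate isomerase Tpi1 (−0.32 ± 0.14), with the MYC antagonist Mxi1 at −0.38 ± 0.12 and the pyruvate dehydrogenase kinase Pdk1 at −0.22 ± 0.10. Only Slc2a1 was called in either oxygen condition. Ldha averaged 378 ± 27.1 CPM in hypoxia ABT-263 libraries and 398 ± 36.1 CPM in hypoxia vehicle libraries (SD, n = 5 and 6). It averaged 340 ± 54.6 CPM in normoxia ABT-263 libraries and 279 ± 21 CPM in normoxia vehicle libraries (SD, n = 6 and 5).

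Smaller negative medians came from lipid and muscle lists. Sterol and fatty acid synthesis had −0.15 over 25 genes, with 5 negative at an unadjusted p under 0.05, among them the regulator Srebf1 (−0.37 ± 0.13), fatty acid synthase Fasn (−0.32 ± 0.12) and the desaturase Scd1 (−0.56 ± 0.21). Smooth muscle genes had −0.21 over 19 genes, from −0.17 in hypoxia and 0.12 in normoxia, with 5 negative at that level. They included desmin Des (−0.45 ± 0.15), leiomodin Lmod1 (−0.38 ± 0.15), calponin Cnn1 (−0.53 ± 0.23) and the smooth muscle actin Acta2 (−0.41 ± 0.17). Acta2 averaged 354 ± 57.7 CPM in hypoxia ABT-263 libraries and 401 ± 42.6 CPM in hypoxia vehicle libraries (SD, n = 5 and 6). It averaged 310 ± 52.9 CPM in normoxia ABT-263 libraries and 265 ± 36.9 CPM in normoxia vehicle libraries (SD, n = 6 and 5), with overlap in both conditions. The 10 mesothelial genes had a median of −0.39, but 4 of the 10 had an interval within 1 log2 unit and the median was −0.03 without normoxia ABT-263 replicates 2 and 6.

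**Figure D4:**
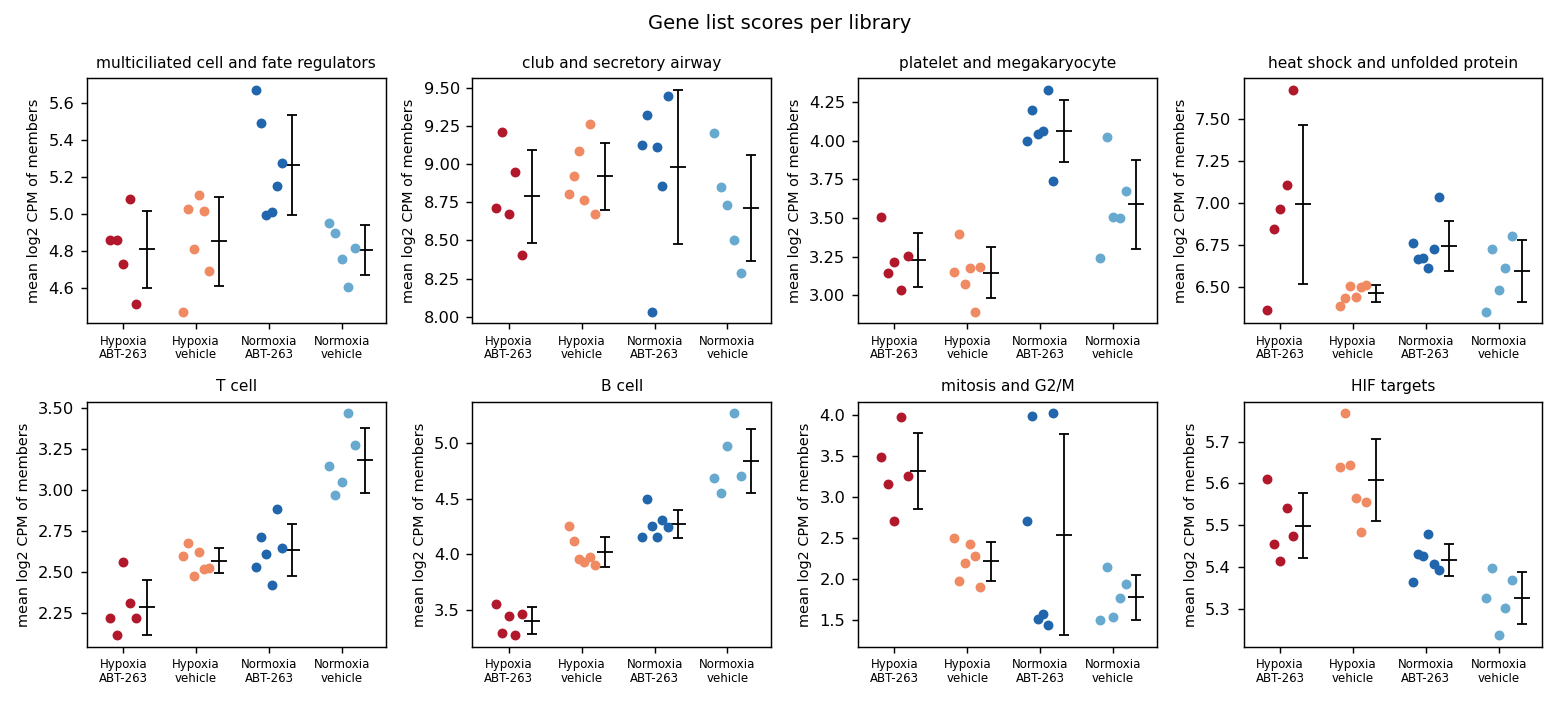
Per-library scores (mean log2 CPM of the tested members) of 8 gene lists, with 1 point per library and bars for mean ± SD. Platelet scores of both hypoxia groups lie low and close together, B cell scores are lower with ABT-263 in both oxygen conditions, and mitosis scores split within normoxia ABT-263.

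Heat shock genes held the largest positive interactions of the genes named here, Hspa1b and Hspa1a, although the list median was below those of the T cell, dendritic cell and interferon lists. Their products are chaperones that hold and refold damaged proteins, induced by heat shock factor through inverted repeats of GAA in their promoters. Hspa1b and Hspa1a, the inducible HSP70 genes, lie side by side on chromosome 17 (chr17:34956436-34959238 and chr17:34969190-34972156, minus strand). Reads of these near-identical copies are divided between them, so each value is uncertain. Their upstream 250 bases are shown because the members that moved most share them almost entirely, with 3 bases that differ (98.8% identical). They are RefSeq sequences of GRCm38.p6, from chr17:34959239-34959488 for Hspa1b and chr17:34972157-34972406 for Hspa1a, written 5′ to 3′ on the gene's strand, and capitals mark the match to GAANNTTC.
Hspa1b: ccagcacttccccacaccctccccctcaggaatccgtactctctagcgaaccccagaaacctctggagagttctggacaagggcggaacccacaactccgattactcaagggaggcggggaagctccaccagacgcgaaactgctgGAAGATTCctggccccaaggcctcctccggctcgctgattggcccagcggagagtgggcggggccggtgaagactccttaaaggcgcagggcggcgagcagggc
Hspa1a: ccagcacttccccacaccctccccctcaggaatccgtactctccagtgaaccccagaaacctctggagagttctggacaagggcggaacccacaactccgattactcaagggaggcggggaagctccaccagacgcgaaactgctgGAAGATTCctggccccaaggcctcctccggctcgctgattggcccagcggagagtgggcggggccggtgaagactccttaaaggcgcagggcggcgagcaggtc
The letters searched were GAANNTTC and TTCNNGAA, which read the same on both strands and can overlap each other. Either occurred in 12.8% of 32817 upstream windows of that length over all genes, and in 14.5% of 27025 genes when any of a gene's windows counted. Of the 30 heat shock and unfolded protein genes, 26 had a window and 8 of these held a match. The 8 include the near-identical Hspa1b and Hspa1a, and Hspd1 and Hspe1, whose windows overlap. Dnajb1, which also rose in hypoxia, held no match in any of its windows, and Dnaja1 held one in some of its windows only. Not every window lies outside the gene. That of Dnajb1 at chr8:83608298-83608547 lies within the annotated gene. The Dnaja1 window at chr4:40722218-40722467, which held a match, overlaps annotated exons of Dnaja1 and Gm6297. A match is a description of the letters and not a bound site.

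Hspa1b had 3.32, 21.3, 26.8, 33.2 and 168 CPM in hypoxia ABT-263 libraries, against 1.25 to 5.74 CPM (median 2.80) in hypoxia vehicle libraries. It had 2.24 to 9.59 CPM (median 5.07) in normoxia ABT-263 libraries, against 1.30, 2.70, 2.64, 3.11 and 4.11 CPM in normoxia vehicle libraries. In hypoxia, 4 of the 5 ABT-263 libraries were above every vehicle library, and the remaining one, replicate 1, whose treatment tag conflicts with its title, was inside the vehicle range. Hspa1b rose in hypoxia (3.96 ± 0.69, edgeR adjusted p = 0.0275), against 0.94 ± 0.77 in normoxia (edgeR adjusted p = 0.639). The rise passed in 17 of the 22 fits, between 2.71 and 4.26, and was 4.10 without the 3 conflicting libraries (edgeR adjusted p = 0.00423). The interaction of 3.02 ± 1.04 had a 95% interval from 0.83 to 5.21 and did not pass (edgeR adjusted p = 0.378). Leaving out the 3 conflictingly labelled libraries gave 3.44, and 1.79 was the lowest value when 1 library was left out. Hspa1a gave 3.78 ± 0.70 in hypoxia (edgeR adjusted p = 0.0341) and 0.83 ± 0.78 in normoxia. It passed in hypoxia in 15 of the 22 fits, and at 3.93 without the 3 libraries (edgeR adjusted p = 0.00621).

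The co-chaperone Dnajb1 had 44.3, 103, 122, 114 and 230 CPM in hypoxia ABT-263 libraries, against 34.2 to 57.9 CPM (median 45.9) in hypoxia vehicle libraries. It had 44.9 to 55.3 CPM (median 46.5) in normoxia ABT-263 libraries, against 33.4, 43.5, 36.6, 37.0 and 45.6 CPM in normoxia vehicle libraries. Replicates 2 to 5 of hypoxia ABT-263 were above all other libraries. Dnajb1 rose in hypoxia (1.42 ± 0.25, edgeR adjusted p = 0.0275), against 0.29 ± 0.26 in normoxia, and Dnaja1 rose there too (1.01, edgeR adjusted p = 0.0358). Dnajb1 passed in 17 of the 22 fits and Dnaja1 in 15. Without the 3 conflicting libraries they had 1.56 (edgeR adjusted p = 0.000153) and 1.12 (edgeR adjusted p = 0.00174). Over the 30 genes of the list the median interaction was 0.25, from 0.33 in hypoxia and 0.13 in normoxia, with 25 positive and 10 (33.3%) at an unadjusted p under 0.05, all positive. The constitutive HSC70 gene Hspa8 (0.56 ± 0.23), the co-chaperones Bag3 (0.36 ± 0.15) and Chordc1 (0.54 ± 0.24) and the stress transcription factor Ddit3 (0.53 ± 0.15) were among the 10. The list score was 6.37 to 7.67 in hypoxia ABT-263, against 6.39 to 6.51 in hypoxia vehicle, so the ABT-263 libraries were far more spread.

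Tmem252, a small membrane protein gene (chr19:24674008-24682233, plus strand), stood in the same libraries. It had 20.9, 33.5, 42.7, 64.4 and 68.7 CPM in hypoxia ABT-263 libraries, against 14.8 to 23.6 CPM (median 20.3) in hypoxia vehicle libraries. Normoxia ABT-263 libraries had 15.9 to 20.7 CPM (median 16.8), against 15.3, 21.7, 14.6, 14.3 and 19.2 CPM in normoxia vehicle libraries. Replicate 1 of hypoxia ABT-263 was within the vehicle range and the other 4 were above it. Tmem252 rose in hypoxia (1.24 ± 0.22, edgeR adjusted p = 0.0232), against 0.03 ± 0.23 in normoxia, and the interaction was 1.21 ± 0.31. The rise of Tmem252 passed in 18 of the 22 fits, and was 1.38 without the 3 conflicting libraries (edgeR adjusted p = 0.000457). The interaction of Tmem252 passed by DESeq2 (adjusted p = 0.0459) and by edgeR without hypoxia ABT-263 replicate 1 (1.41 ± 0.23, adjusted p = 0.0304). It passed in these 2 settings only. Amd1, which makes the aminopropyl donor for polyamines, is named because it passed in fits with fewer libraries. It had 128, 62.3, 53.4, 41.4 and 43.1 CPM in hypoxia ABT-263 libraries, against 92.2 to 157 CPM (median 112) in hypoxia vehicle libraries, with 28.7 to 40.2 CPM in normoxia ABT-263 and 28.9 to 33.1 CPM in normoxia vehicle libraries. Here too replicate 1 was within the vehicle range and the other 4 were below it. Its interaction was −1.25 without the 3 libraries with conflicting labels (edgeR adjusted p = 0.030), and −1.28 without hypoxia ABT-263 replicate 1 (edgeR adjusted p = 0.00692). Both of these fits leave out replicate 1, the library that lay within the vehicle range. With all 22 libraries the interaction of Amd1 did not pass, and these were the only 2 settings in which it did. Syt12, a synaptotagmin of vesicle release, differed on the normoxia side, where it rose (1.28 ± 0.28, edgeR adjusted p = 0.0305), against −0.01 ± 0.30 in hypoxia. Syt12 passed in 16 of the 22 fits, and was 1.25 without the 3 libraries (edgeR adjusted p = 0.0989).

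**Figure D5:**
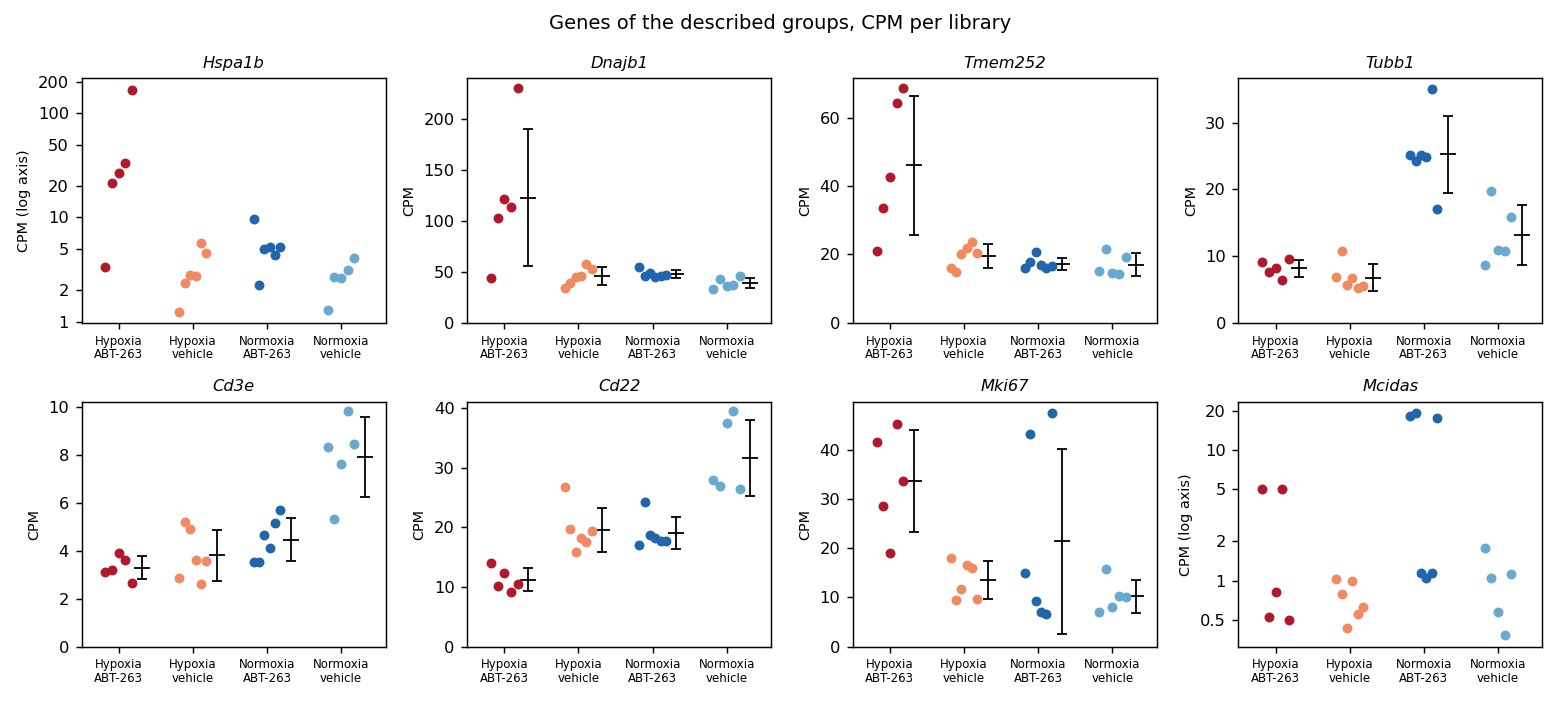
CPM per library of 8 genes of the described groups, with 1 point per library, bars for mean ± SD on linear axes, and log axes for Hspa1b and Mcidas. Hspa1b, Dnajb1 and Tmem252 are high in 4 of the 5 hypoxia ABT-263 libraries, Tubb1 is high in normoxia ABT-263, Cd22 is lower with ABT-263 in both conditions, and Mki67 and Mcidas split within groups.

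T cell genes had a positive median interaction. Over 22 genes it was 0.28, with medians of −0.28 in hypoxia and −0.52 in normoxia, with 19 positive and 4 of these at an unadjusted p under 0.05. In normoxia 7 members fell, and no member passed in hypoxia. Cd3e, a chain of the T cell receptor complex, had 3.10, 3.22, 3.93, 3.61 and 2.64 CPM in hypoxia ABT-263 libraries, against 2.63 to 5.22 CPM (median 3.61) in hypoxia vehicle libraries. It had 3.52 to 5.73 CPM (median 4.41) in normoxia ABT-263 libraries, against 8.36, 5.32, 7.64, 9.86 and 8.48 CPM in normoxia vehicle libraries. Normoxia vehicle was the group that stood high, with 1 of its libraries inside the normoxia ABT-263 range. Cd3e fell in normoxia (−0.83 ± 0.18, edgeR adjusted p = 0.0305), against −0.21 ± 0.19 in hypoxia, and its interaction of 0.62 ± 0.26 did not pass (edgeR adjusted p = 0.467). Its fall passed in 16 of the 22 fits, and was −0.78 without the 3 conflicting libraries (edgeR adjusted p = 0.0963). Of the 7 list members called in normoxia, 2 passed in that fit. Beside Cd3e, the members with a positive interaction at an unadjusted p under 0.05 were Cd5, Il7r and Cd4, at 0.50, 0.45 and 0.60.

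NK and cytotoxic genes were lower with ABT-263 in both conditions, with medians of −0.51 in hypoxia and −0.73 in normoxia over 22 genes and a median interaction of 0.23. In normoxia 7 members fell and in hypoxia 1, the kinase Txk. None of these calls was made without the 3 conflicting libraries, where Txk had −0.93 in hypoxia (edgeR adjusted p = 0.069). The activating receptor Klrk1 averaged 5.65 ± 1.34 CPM in hypoxia ABT-263 libraries and 6.46 ± 0.598 CPM in hypoxia vehicle libraries (SD, n = 5 and 6). It averaged 6.96 ± 0.955 CPM in normoxia ABT-263 libraries and 11.6 ± 2.19 CPM in normoxia vehicle libraries (SD, n = 6 and 5), with an interaction of 0.54 ± 0.20. Interferon-stimulated genes had a median of 0.25 over 28 genes, from 0.02 in hypoxia and −0.21 in normoxia. Of these 25 were positive and 4 were so at an unadjusted p under 0.05, Irf9 (0.41 ± 0.14), Bst2 (0.34 ± 0.12), Iigp1 (0.65 ± 0.24) and Stat2 (0.33 ± 0.16), and no member passed in either oxygen condition. Dendritic cell and MHC class II genes had 0.28 over 18 genes, 17 of them positive, and the median was 0.01 in hypoxia and −0.25 in normoxia. At an unadjusted p under 0.05 there was 1 positive member, H2-Aa (0.28 ± 0.13), and 1 negative one, Cd24a (−0.34 ± 0.14), 5.56% of the list each.

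B cell genes were the clearest shared response. The median was −0.68 in hypoxia and −0.60 in normoxia over 23 genes, and the median interaction was −0.03. In hypoxia 10 members fell and in normoxia 12. Without the 3 conflicting libraries 8 members were called in hypoxia and 4 in normoxia, and with any 1 library left out 2 to 14 in hypoxia and 1 to 18 in normoxia. For the interaction 0 of the 23 had an unadjusted p under 0.05 by edgeR, and all 23 had a 95% interval within 1 log2 unit. Cd22, an inhibitory B cell co-receptor (chr7:30865402-30880342, minus strand), had 14, 10.2, 12.3, 9.19 and 10.5 CPM in hypoxia ABT-263 libraries, against 15.9 to 26.7 CPM (median 18.8) in hypoxia vehicle libraries. It had 17.1 to 24.3 CPM (median 18) in normoxia ABT-263 libraries, against 27.9, 26.9, 37.5, 39.5 and 26.4 CPM in normoxia vehicle libraries. The treatments did not overlap in either oxygen condition. Cd22 fell by 0.80 ± 0.14 in hypoxia and 0.74 ± 0.13 in normoxia on the log2 scale (edgeR adjusted p = 0.0178 and 0.0218), and its interaction was −0.06 ± 0.19, with an interval from −0.46 to 0.34. Cd22 passed in 19 of the 22 fits in either condition, and without the 3 libraries at −0.78 in hypoxia and −0.72 in normoxia (edgeR adjusted p = 0.00941 and 0.0322). Ighd, the heavy chain of surface IgD on mature B cells, had 31.9, 22.2, 23.9, 23.0 and 20.8 CPM in hypoxia ABT-263 libraries, against 45.5 to 66.9 CPM (median 50.8) in hypoxia vehicle libraries. In normoxia it had 50.0 to 62.5 CPM (median 57.9) with ABT-263, against 95.9, 77.1, 119, 127 and 90.9 CPM with vehicle. Its interaction was −0.32 ± 0.18 (95% interval −0.69 to 0.04). These intervals leave room for a smaller difference in either direction and do not show that the effects were alike. Plasma cell genes had a median of −0.28 in hypoxia and −0.23 in normoxia, with none of 9 passing in either condition.

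Matrix genes leaned positive. Over 37 extracellular matrix genes the median interaction was 0.19, from 0.20 in hypoxia and −0.01 in normoxia, with 34 positive and 5 (13.5%) at an unadjusted p under 0.05. Periostin (Postn) averaged 438 ± 28.9 CPM in hypoxia ABT-263 libraries and 363 ± 18.7 CPM in hypoxia vehicle libraries (SD, n = 5 and 6), with no overlap. It averaged 256 ± 33.9 CPM in normoxia ABT-263 libraries and 292 ± 54.2 CPM in normoxia vehicle libraries (SD, n = 6 and 5), with overlap. Its interaction was 0.46 ± 0.14 (edgeR adjusted p = 0.322). The microfibril genes Fbn1 (0.36 ± 0.13) and Mfap5 (0.40 ± 0.17) and the collagens Col14a1 (0.49 ± 0.20) and Col5a2 (0.37 ± 0.16) completed the 5. No member was called in either oxygen condition. Pericyte genes had a median of 0.08, but 5 of 13 (38.5%) were positive at an unadjusted p under 0.05, Postn among them, with the cation channel Trpc6 (0.36 ± 0.12) and the guanylate cyclase subunits Gucy1a1 (0.32 ± 0.13) and Gucy1b1 (0.30 ± 0.14). General capillary genes had 0.19 over 11 genes, with 3 (27.3%) positive at that level. Among these were Kit (0.50 ± 0.16) and the apelin receptor Aplnr (0.63 ± 0.21).

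Cell cycle genes could not be compared at useful precision. Mitotic genes had a median of 1.24 in hypoxia and 1.11 in normoxia over 30 genes, and 2 of the 30 had an interaction interval within 1 log2 unit. Mki67, the proliferation antigen, had 41.6, 28.5, 19.1, 45.1 and 33.6 CPM in hypoxia ABT-263 libraries, all above the 9.37 to 18 CPM of hypoxia vehicle libraries. The 6 normoxia libraries with ABT-263, replicates 1 to 6, had 15, 43.2, 9.30, 6.97, 6.66 and 47.4 CPM, whereas normoxia vehicle libraries had 7.06 to 15.7 CPM. Replicates 2 and 6 were high and the other 4 lay within or just below the vehicle range. Its interaction was 0.25 ± 0.66. Without replicates 2 and 6 of normoxia ABT-263, the median interaction of the list was 1.05 in place of −0.09. In that fit 8 genes passed for the interaction, among them the mitotic genes Birc5 (1.46 ± 0.24, edgeR adjusted p = 0.0258) and Cenpa (1.08 ± 0.20, edgeR adjusted p = 0.0389). These libraries were left out because of their cell cycle levels in earlier results, so that fit is no independent evidence on cell cycle genes.

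Mcidas and Ccno, which switch on centriole amplification in multiciliated cell precursors, also split within groups, in libraries that partly coincide with those high in Mki67. In normoxia ABT-263, replicates 2 and 6 were high for both and replicate 1 for Mcidas and Ccno but not Mki67, and in hypoxia ABT-263 the replicates high in Mcidas, 1 and 4, were also the highest for Mki67. Mcidas had 5.05, 0.521, 0.818, 5.02 and 0.496 CPM in hypoxia ABT-263 replicates 1 to 5, whereas hypoxia vehicle libraries had 0.435 to 1.03 CPM. In normoxia ABT-263 replicates 1 to 6 it had 18.2, 19.2, 1.15, 1.04, 1.15 and 17.5 CPM, whereas normoxia vehicle libraries had 0.379 to 1.78 CPM. Ccno had 15.3, 4.35, 2.86, 24.5 and 3.55 CPM in hypoxia ABT-263 and 49.2, 51.2, 5.97, 5.59, 6.17 and 46.9 CPM in normoxia ABT-263 libraries, high in the same libraries. No vehicle library of either oxygen condition reached these levels. The Mcidas difference was 1.71 ± 0.95 in hypoxia and 3.28 ± 0.88 in normoxia (edgeR adjusted p = 0.0945), and its interaction was −1.57 ± 1.33, with an interval from −4.36 to 1.21.

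The targets of ABT-263 and the senescence genes showed no interaction that passed. Mcl1, an anti-apoptotic protein that ABT-263 does not bind, had 455, 588, 572, 581 and 642 CPM in hypoxia ABT-263 libraries, against a mean of 476 ± 50.7 CPM in hypoxia vehicle libraries (SD, n = 6). It averaged 443 ± 24.8 CPM in normoxia ABT-263 libraries and 440 ± 48.0 CPM in normoxia vehicle libraries (SD, n = 6 and 5), and its interaction was 0.24 ± 0.13. Of the drug's targets, Bcl2 had an interaction of 0.18 ± 0.12, Bcl2l1 (BCL-XL) −0.13 ± 0.16 and Bcl2l2 (BCL-W) −0.24 ± 0.15. The executioners Bax (0.07 ± 0.11) and Bak1 (−0.10 ± 0.17) and the p53-induced Pmaip1 (0.09 ± 0.19) were near 0, and Bbc3, which encodes PUMA, had −0.38 ± 0.15 (edgeR adjusted p = 0.439). All 12 pro-apoptotic genes tested had an interval within 1 log2 unit.

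Cdkn1a, the p21 cell cycle inhibitor, had 68.4, 64.7, 66.1, 105 and 75.7 CPM in hypoxia ABT-263 libraries, against 45.3 to 73.6 CPM (median 58.0) in hypoxia vehicle libraries. It had 71.6 to 101 CPM (median 86.1) in normoxia ABT-263 libraries, against 43.2, 70.6, 39.1, 40.9 and 60.4 CPM in normoxia vehicle libraries. The normoxia groups were separated by a narrow margin. Cdkn1a rose in normoxia (0.77 ± 0.16, edgeR adjusted p = 0.0328), against 0.39 ± 0.16 in hypoxia, but the interaction of −0.38 ± 0.23 did not pass (edgeR adjusted p = 0.651). The rise of Cdkn1a passed in 15 of the 22 fits, and was 0.70 without the 3 conflicting libraries (edgeR adjusted p = 0.097). The reverse held for the death receptor Tnfrsf10b, which rose in hypoxia (0.76 ± 0.16, edgeR adjusted p = 0.0358), against 0.33 ± 0.16 in normoxia, with an interaction of 0.42 ± 0.23 (edgeR adjusted p = 0.595). Tnfrsf10b passed in 14 of the 22 fits, and at 0.84 without the 3 libraries (edgeR adjusted p = 0.0319). Cdkn2a, which encodes p16, was too low to be tested, with 0.438 ± 0.0825 CPM in hypoxia ABT-263 and 0.386 ± 0.190 CPM in hypoxia vehicle libraries (SD, n = 5 and 6). It had 0.698 ± 0.304 CPM in normoxia ABT-263 and 0.615 ± 0.163 CPM in normoxia vehicle libraries (SD, n = 6 and 5). Median interactions were 0.04 over 17 senescence regulators, 0.12 over 50 senescence-associated secreted factors and 0.03 over 26 p53 targets. Bmpr2, the receptor whose loss causes heritable pulmonary arterial hypertension, had 0.01 ± 0.16 (95% interval −0.33 to 0.34).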

How the data were processed

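Total RNA from 22 mouse lungs was sequenced as stranded mRNA libraries, per the labels' protocols. The values are expected counts per gene, deposited by the authors in 1 table; Trimmomatic, STAR, RSEM and GRCm38 are named in the submitters' processing notes without versions, and whether counting used strand is not given in the sources used here. Expected counts were rounded, and genes with low counts were removed (filterByExpr, minimum count 10), which left 16638 of 54532. Of the identifiers, 54495 matched the GENCODE M21 annotation. Counts were scaled by TMM and fitted with 1 mean per group in edgeR 4.0.16 (R 4.3.3) by the robust quasi-likelihood test, with Benjamini-Hochberg adjustment over all genes and a threshold of 0.05. Contrasts were the interaction and ABT-263 against vehicle within each oxygen condition. Standard errors came from the log2 fold change and its F statistic. List scores are mean log2 CPM with a prior count of 2.

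Groups came from the sample titles, and replicate numbers follow the order of the records and pair no samples. The labels used here name no batch. Within-group pairs of libraries differed by 5.35 to 40.9 times the chi-square per gene that sampling noise gives, so none was counted as a duplicate. Alternatives were DESeq2 1.42.0, limma-voom (limma 3.58.1), other scalings and filters, treatments read from the tags, and libraries left out. Named genes were the 15 with the smallest interaction p on each side (at least 2 CPM in the highest group, no unnamed gene models), up to 5 called per direction in each oxygen condition, up to 4 per list described and a list of 25 genes. The comparison, the members and the 41 lists were chosen with earlier results of these data known. The test was checked on simulated counts with known interactions. Some genes that the rule names are not reported here. Figures were drawn with matplotlib 3.10.9.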

Additional observations from a re-analysis of the deposited data

Results flagged for a closer look

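Of 136 groups of values tested for 1 library far from the others, 10 had such a library, and chance alone flags about 1 in 20. In hypoxia ABT-263, Hspa1b had 168 CPM in replicate 5, against 3.32 to 33.2 CPM in the others. In the same group, replicate 4 was low for Abcg3 (8.70 CPM, others 10.6 to 11.2), high for Cdkn1a (105 CPM, others 64.7 to 75.7) and low for the NK and cytotoxic score (0.961, others 1.55 to 1.77 mean log2 CPM). Replicate 1 of that group was high for Ighd (31.9 CPM, others 20.8 to 23.9). In hypoxia vehicle, Tubb1 had 10.7 CPM in replicate 2 (others 5.18 to 6.93) and Cd22 had 26.7 CPM in replicate 1 (others 15.9 to 19.7). In normoxia ABT-263, Cd22 had 24.3 CPM in replicate 2 (others 17.1 to 18.8), Foxj1 had 351 CPM in replicate 1 (others 229 to 274) and the heat shock score was 7.03 in replicate 6 (others 6.62 to 6.76).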

How the results depend on the processing

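The count of genes called for the interaction was 0 under the other edgeR scalings and filters, 0 by limma-voom (1497 at an unadjusted p under 0.05), and 0 by edgeR with treatments read from the tags (1194 at that p). It was 17 by DESeq2, 1 without the 3 libraries with conflicting labels, 8 without normoxia ABT-263 replicates 2 and 6, and 0 to 2 when 1 library was left out. For ABT-263 in hypoxia the count was 247 by DESeq2, 12 by limma-voom, 77 without the 3 libraries, 0 by edgeR with tag labels (1650 at that p), 257 without replicates 2 and 6 and 10 at 2-fold or more. Leaving out 1 library gave 3 (hypoxia vehicle replicate 2) to 228 (hypoxia ABT-263 replicate 1). For normoxia it was 59 with library totals, 324 by DESeq2, 16 without the 3 libraries, 0 by edgeR with tag labels (1386 at that p), 147 without replicates 2 and 6 and 4 at 2-fold or more, and 1 (without normoxia vehicle replicate 4) to 183 (without normoxia vehicle replicate 2). Without a low-count filter, 42.3% of genes had an interval within 1 log2 unit, and the correlation of the effects was 0.0338.

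Some interactions changed sign, not all of them near 0. With tag labels they were 0.0499 for Edn1 (−0.97 with titles), 0.0434 for Ighd, 0.0828 for Fcmr, 0.0301 for Cd79a, 0.60 for Mmp9, −0.0231 for Pmaip1, −0.32 for Mki67 and 0.26 for Cd22. Without replicates 2 and 6 they were 0.0218 for Pola1, 0.51 for Plk1 (−0.60 with all libraries), 0.0490 for Chaf1a, 0.48 for Aurka (−0.56 with all libraries), −0.0528 for Pmaip1, 0.87 for Top2a, 0.0248 for Cd22 and −0.12 for Bmpr2, and limma-voom gave 0.11 for Top2a. With 1 library left out, values ran from −0.62 to 0.10 for Top2a, from −0.14 to 0.0578 for Cd22 and from −0.0748 to 0.11 for Bmpr2. The cause was not tested. No paired analysis was possible because replicate numbers follow the order of the records. On simulated counts at these group sizes and depths, with each gene drawn independently, 34.3% of 1.5-fold and 77.6% of 2-fold interactions were recovered.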

Other observations

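Alveolar macrophage genes, not described above, had a median interaction of 0.18 over 22 genes, with 4 positive at an unadjusted p under 0.05. Glucocorticoid targets were higher with ABT-263 in both conditions by their medians, 0.39 in hypoxia and 0.43 in normoxia over 19 genes, with 1 gene called in normoxia and an interaction of −0.10. Cardiac muscle genes, which the muscle of the pulmonary veins also expresses, had medians of −0.35 in hypoxia and −0.17 in normoxia. Oxidative phosphorylation genes had a median interaction of −0.04, and all 26 had an interval within 1 log2 unit.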
